A study of Mus musculus with 6 samples.

Results

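The 44 genes described here encode the machinery of mitosis and of the mitotic spindle. They were taken as a fixed list of symbols, mapped from Ensembl identifiers with GENCODE M21 on GRCm38, and all 44 were found among the 46603 gene rows of each count file. They came from bulk RNA sequencing of mouse bone marrow-derived macrophages (BMDM), cells grown from the marrow of C57BL/6/J mice 7 weeks old with 20% medium from L929 cells, a fibroblast line whose medium supplies macrophage growth factor. On day 6 the cells were replated at 800000 per well, and 6 h later they received medium conditioned by cancer cells, in 3 libraries with its lipids and in 3 libraries without them. The growth, strain, age and cancer cell-conditioned medium were shared by both groups, and no library from cells without cancer cell medium is used here. The sources used here do not name the cancer cell line, the method of lipid removal or the time spent in the medium.

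A cell enters mitosis when cyclin B binds and activates the kinase CDK1. Chromosomes are then compacted by condensin and topoisomerase II, attached to spindle microtubules through kinetochores, and watched over by the spindle checkpoint until the anaphase-promoting complex (APC/C) starts their separation. The transcripts of this machinery are low in resting cells and rise together before division, so in a bulk sample their level reflects both how many cells are dividing and how much each of them makes, and these cannot be told apart here. Macrophages grown from marrow divide in response to the growth factor in L929 medium.

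With lipids in the medium, the macrophages held more transcript of 16 of the 44 mitosis and spindle genes and less of 0 (edgeR quasi-likelihood test, adjusted p under 0.05 over 12767 tested genes). Across all tested genes 4.58% were higher and 6.87% lower with lipids. The genes that passed were led by Foxm1, which encodes a transcription factor of the G2 and M phases, and Ncapd2, a condensin subunit, and also held Ndc80, Top2a, Aurka, Aurkb, Birc5 and Bub1b. Changes were small. The largest, for Ndc80, was 1.44-fold, and the median log2 fold change (with lipids minus without lipids) was 0.36 over the 44 genes, against -0.00 over all tested genes. Of the 44, 43 had a positive value and only Bub3 a negative one. At an unadjusted p under 0.05, 33 were higher and 0 lower, where 12.1% of all tested genes were higher. DESeq2 called 25 higher and 0 lower, where 5.02% of all genes it tested were higher, and limma-voom called 18 and 0 (4.7% of all genes higher). With library totals alone as scaling 27 were higher (9.72% of all genes), without a filter 33 (4.4%) and with library weights 41 (11.4%), and 0 were lower in each.

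The size of the difference depended on which library without lipids was compared. Summed over the 44 genes, transcript levels were 2889, 2878 and 2740 counts per 1000000 (CPM) with lipids, against 2684, 2141 and 1914 CPM without lipids. The 3 libraries with lipids lay close together. Replicate 1 without lipids lay just under them, and replicates 2 and 3 were clearly lower. The group averages were 2835 ± 83.1 CPM with lipids and 2246 ± 396 CPM without lipids (SD, n = 3 each), and before TMM scaling the 44 genes took on average 0.291% and 0.219% of a library's counts. The median gene of the list was 0.09 log2 higher in the mean of the libraries with lipids than in replicate 1 without lipids, 0.43 higher than in replicate 2 and 0.62 higher than in replicate 3. Replicate 3 without lipids held the lowest level of all 6 libraries for 41 of the 44 genes, where 20.3% of all tested genes were lowest in it. Replicates 2 and 3 were both below every library with lipids for 43 genes, against 25.7% of all tested genes, while replicate 1 was below every library with lipids for 24 genes, against 35.3%.

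**Figure D1:**
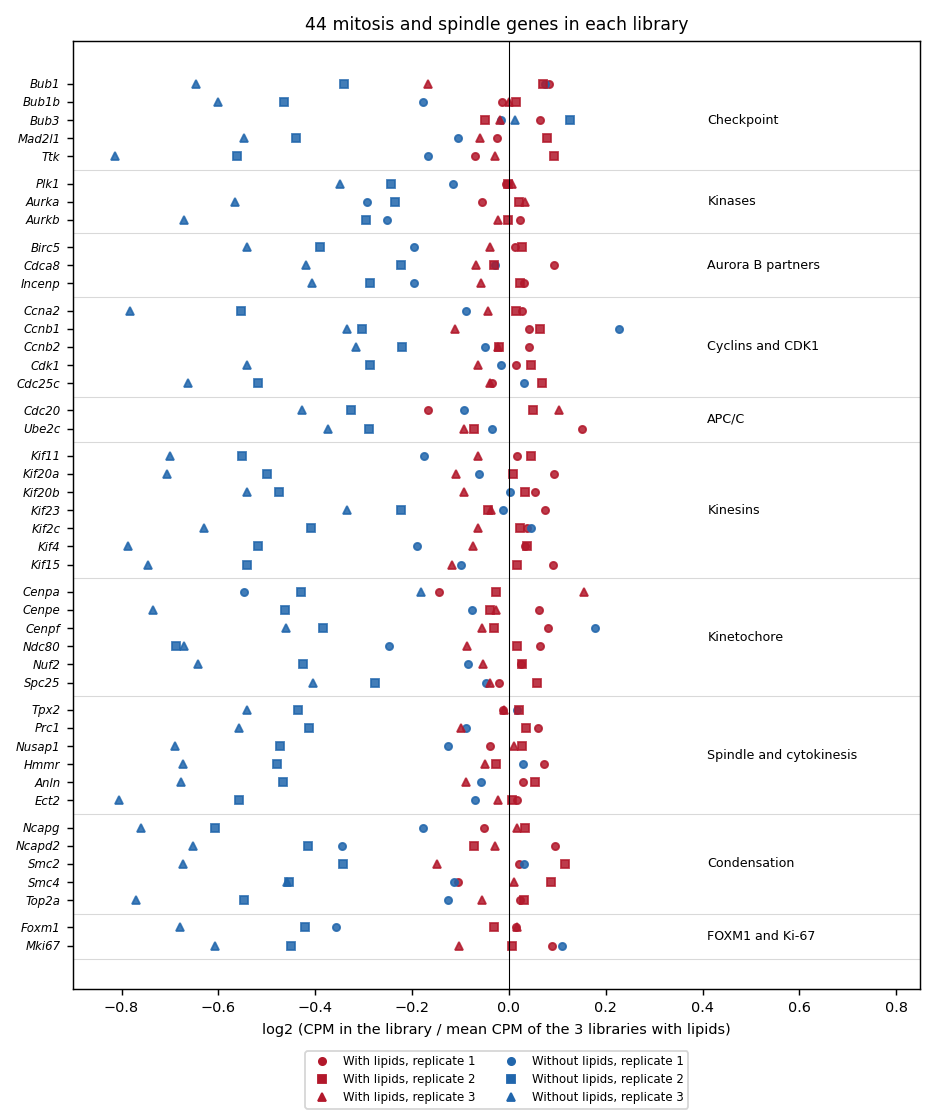
Level of each of the 44 genes in each library, as the log2 ratio of its CPM to the mean of the 3 libraries with lipids (red), with libraries without lipids in blue and marker shapes for the replicate number. Blue squares and triangles (replicates 2 and 3) lie left of all red points for 43 genes, while blue circles (replicate 1) do so for 24.

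Every one of the 44 genes varied more between libraries without lipids than between libraries with lipids, as did 74.1% of all tested genes. The median SD on the log2 scale was 0.06 with lipids and 0.27 without lipids for the 44 genes, and 0.07 and 0.13 for all tested genes. Without lipids, replicate 1 was the highest of the 3 for 41 of the genes. Biological variation estimated by edgeR had a median of 8.88% for the 16 genes that passed and 10.9% for the 28 that did not. Over all tested genes the median was 7.24%. The test itself uses this variation, so a lower value among genes that passed is partly built in. Median log2 fold changes also differed, at 0.43 for the 16 genes and 0.30 for the 28. Without replicate 1 of the group without lipids, 43 of the 44 genes passed, where 12.0% of all tested genes were higher, and the median log2 fold change was 0.51. Without replicate 3 of that group 9 genes passed, at a median of 0.25, where 5.01% of all genes were higher. When that group's replicate 2 was dropped 2 genes passed, against 1.87% of all genes. Dropping replicate 1, 2 or 3 with lipids left 2, 2 and 4 genes, against 2.03%, 1.69% and 1.87% of all genes. Foxm1 and Ncapd2 passed in each of these 6 fits, and no other gene of the list did.

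Other measures of the libraries are set beside this spread. Libraries held 19429022 to 25323053 counts, and the share of mitochondrial transcripts was 1.61% to 1.75% with lipids and 1.58% to 1.71% without lipids. The 20 most abundant genes took 11.3% to 11.6% of counts with lipids and 13.6%, 13.8% and 14.4% in replicates 1, 2 and 3 without lipids. All 9 macrophage markers were detected, among them Adgre1 at 2496 to 3007 CPM and Csf1r at 2615 to 3095 CPM over the 6 libraries. They summed to 29208 to 29566 CPM with lipids and 29520, 30407 and 34403 CPM in replicates 1, 2 and 3 without lipids. Most of each sum was Lyz2, at 19610 to 19845 CPM with lipids and 20689, 21112 and 24729.5 CPM without lipids. Itgam and Fcgr1 were higher with lipids and Cd68 lower (edgeR adjusted p under 0.05), and the other macrophage markers did not pass. Stromal markers, 7 genes such as Col1a1 and Col1a2, summed to 120 to 127 CPM with lipids and to 124, 159 and 169 CPM in replicates 1, 2 and 3 without lipids, with Lum at 0 to 4 counts in each library. Progenitor markers, 8 genes of which 6 fell below the filter on low counts, summed to 3.60 to 3.96 CPM with lipids and 10.1 to 12.1 CPM without lipids, mostly Kit, while Mpo and Elane had at most 1 count in any library. Markers of neutrophils summed to 13.3 to 14.7 CPM with lipids and 15.3 to 17.0 CPM without lipids, nearly all of it Mmp8, with Ly6g and Retnlg at 0. T cell markers summed to 6.28 to 7.06 CPM with lipids and 11.1 to 17.4 CPM without lipids, nearly all of it Cd4, with Cd3e and Cd8a at 0. Megakaryocyte markers, almost wholly Pf4 and Ppbp, summed to 416 to 431 CPM with lipids and 222 to 258 CPM without lipids. Dendritic cell, B cell, erythroid and epithelial lists each summed to at most 2.30 CPM in every library. Of the markers outside the macrophage list, Kit, Cd4 and Col3a1 were lower with lipids and Pf4 and Ppbp higher (edgeR adjusted p under 0.05). No other tested marker of those lists passed. The part of these differences in the mitosis results was not tested.

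Promoters of the list were examined because its members moved together. Many genes of the G2 and M phases are known to carry a cell cycle genes homology region (CHR), through which the DREAM complex represses them in resting cells and B-MYB and FOXM1 complexes activate them before division, often beside CCAAT boxes bound by NF-Y. RefSeq promoter windows on GRCm38.p6, from 250 bases before to 50 bases after the start of the gene, were found for 36 of the 44 genes, and 33 had a single window. A CHR motif (TTTGAA or TTCGAA, either strand, each position counted once) lay in 27 of these 33 windows, or 81.8%, against 14.0% of the windows of 7655 tested genes with a single window. In 13 of the 33, or 39.4%, it lay before the start, against 12.4% of all these tested genes. CCAAT on either strand lay in 24 windows, 72.7% against 39.4%, and both motifs lay in 22, 66.7% against 5.97%. An E2F motif (TTTGGCGC, TTTCCCGC, TTTGCCGC or TTTCGCGC, either strand) lay in 4 windows, 12.1% against 4.51%. For 36 replication and S-phase genes these shares were 16.7% for CHR, 61.1% for CCAAT and 33.3% for E2F. CHR lay in 10 of 12 windows of genes that passed and in 17 of 21 windows of genes that did not. The 150 bases before the start are shown for Kif11 and Top2a, which passed, and for Ccnb2, which did not, 5′ to 3′ along the gene's strand with CHR and CCAAT matches in capitals. ATTGG and TTCAAA are the same motifs read on the other strand.
Kif11, chr19:37376232-37376381, plus strand: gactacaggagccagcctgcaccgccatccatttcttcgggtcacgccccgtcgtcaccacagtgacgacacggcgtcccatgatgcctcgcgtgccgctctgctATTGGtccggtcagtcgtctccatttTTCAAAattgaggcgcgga
Top2a, chr11:99024190-99024339, minus strand: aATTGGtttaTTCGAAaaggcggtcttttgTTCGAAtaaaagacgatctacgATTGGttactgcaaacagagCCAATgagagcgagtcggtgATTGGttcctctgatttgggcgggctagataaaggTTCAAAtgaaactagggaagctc
Ccnb2, chr9:70421555-70421704, minus strand: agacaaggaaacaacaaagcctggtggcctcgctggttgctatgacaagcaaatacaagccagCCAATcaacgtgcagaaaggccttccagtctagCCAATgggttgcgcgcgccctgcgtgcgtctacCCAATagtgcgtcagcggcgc
These stretches held 4 CCAAT and 3 CHR matches for Top2a, 1 of each for Kif11 and 3 CCAAT matches for Ccnb2, whose 2 CHR matches lie in the other bases of its 300-base window. A match in these windows describes letters and shows no binding.

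The regulator Foxm1 had the smallest p of the 44 genes. It lies on chromosome 6 (128362967 to 128376146, GRCm38) and was at 53.6, 51.9 and 53.7 CPM with lipids, against 41.4, 39.6 and 33.1 CPM without lipids. The groups did not overlap, and all 3 libraries without lipids lay well below the others. Its log2 fold change was 0.48 (SE 0.09, edgeR adjusted p = 0.00459). Mki67, which encodes Ki-67, a protein that coats mitotic chromosomes and serves as the usual marker of dividing cells, behaved differently. It was at 334, 316 and 292 CPM with lipids, against 339, 229.8 and 206 CPM without lipids. Replicate 1 without lipids was the highest of all 6 libraries, so the groups overlapped, and its change of 0.28 log2 (SE 0.15, edgeR adjusted p = 0.253) did not pass.

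**Figure D2:**
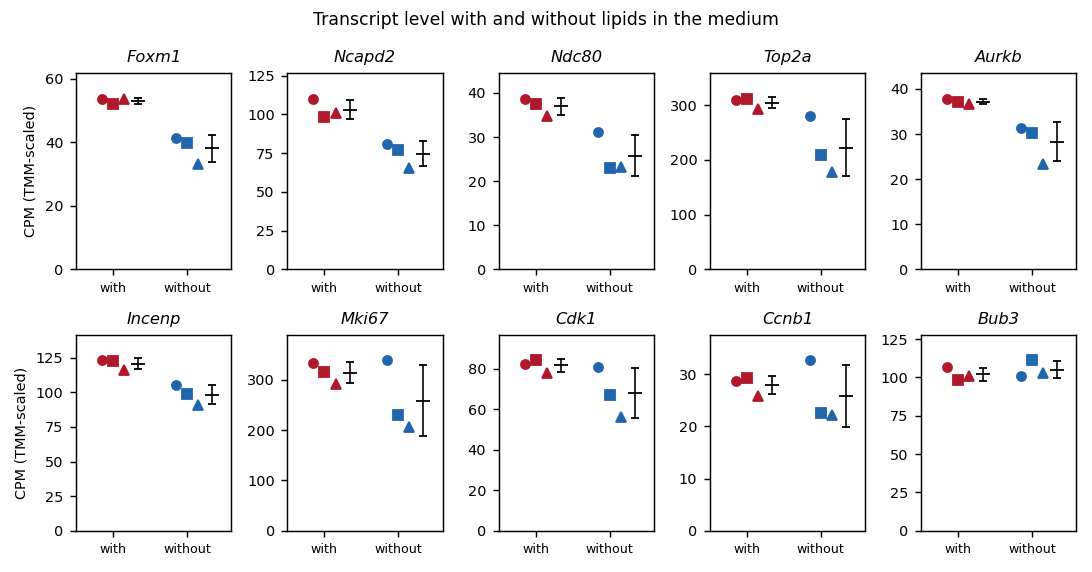
TMM-scaled CPM of 10 genes in the 3 libraries with lipids (red) and the 3 without (blue), by replicate (circle 1, square 2, triangle 3), with mean and SD in black and each axis starting at 0. The groups are apart for Foxm1, Ncapd2, Ndc80, Top2a, Aurkb and Incenp, and overlap for Mki67, Cdk1, Ccnb1 and Bub3, where replicate 1 without lipids reached 339 CPM for Mki67.

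Chromosome compaction held the largest share of genes that passed, 4 of 5 (80.0%, against 4.58% of all tested genes higher). The roles hold few genes each and were not tested against each other. Ncapd2, a subunit of condensin I on chromosome 6 (125168007 to 125191701), was at 110.1, 98.1 and 101 CPM with lipids, against 81.2, 77.4 and 65.6 CPM without lipids. The groups were well apart, and the log2 fold change was 0.46 (SE 0.08, edgeR adjusted p = 0.00506). Ncapg, another condensin I subunit, was at 36.1, 38.3 and 37.8 CPM with lipids, against 33.1, 24.6 and 22.1 CPM without lipids, and passed at 0.50 (SE 0.13, edgeR adjusted p = 0.0279). The ATPase arms of condensin are encoded by Smc2 and Smc4. Smc4 was at 150.5, 172 and 163 CPM with lipids, against 149.7, 118 and 118 CPM without lipids, so that replicate 1 without lipids nearly met the lowest library with lipids, and it passed at 0.33 (SE 0.09, edgeR adjusted p = 0.0435). Smc2, at 121, 129 and 107 CPM with lipids, against 122, 93.8 and 74.6 CPM without lipids, overlapped between groups and did not pass (0.30, edgeR adjusted p = 0.203). Top2a, the topoisomerase that untangles sister chromatids, on chromosome 11 (98992943 to 99024189), was at 309, 311 and 293 CPM with lipids, against 279, 208 and 179 CPM without lipids. Its log2 fold change was 0.46 (SE 0.13, edgeR adjusted p = 0.042). Per kilobase of exon, Top2a and Mki67 were the most abundant of the 44 with lipids, at 33.8 and 31.2 CPM per kilobase, and Cdc25c the least, at 1.04.

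Among spindle checkpoint genes, which hold back anaphase until every chromosome is attached, 2 of 5 passed (40.0%, against 4.58% of all tested genes higher). Bub1b, which encodes BUBR1, an inhibitor of the APC/C, was at 64.6, 66.0 and 65.3 CPM with lipids, against 57.7, 47.4 and 43.1 CPM without lipids. Its libraries with lipids were almost equal, and it passed at 0.40 (SE 0.10, edgeR adjusted p = 0.0201). Ttk, the kinase MPS1 that starts checkpoint signalling, was at 15.1, 16.9 and 15.6 CPM with lipids, against 14.1, 10.8 and 9.05 CPM without lipids, and passed only just at 0.50 (SE 0.14, edgeR adjusted p = 0.0478). Mad2l1, the checkpoint protein MAD2, missed the threshold at 0.35 (SE 0.10, edgeR adjusted p = 0.0522) although its groups did not overlap. The checkpoint kinase Bub1 was at 41.1, 40.8 and 34.6 CPM with lipids, against 40.9, 30.6 and 24.8 CPM without lipids. Its groups overlapped through replicate 1 without lipids, and 0.28 (SE 0.15, edgeR adjusted p = 0.267) did not pass. Bub3, the partner that brings both BUB kinases to kinetochores, was at 107, 98.6 and 101 CPM with lipids, against 101, 111 and 103 CPM without lipids. Its log2 fold change was -0.04 (SE 0.06, edgeR adjusted p = 0.715).

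Of the mitotic kinases, both Aurora kinases rose. Aurka, which matures spindle poles, was at 21.4, 22.6 and 22.7 CPM with lipids, against 18.1, 18.9 and 15.01 CPM without lipids (0.36, SE 0.10, edgeR adjusted p = 0.0377). Aurkb, the catalytic subunit of the chromosomal passenger complex, which corrects faulty attachments, was at 37.8, 37.2 and 36.6 CPM with lipids, against 31.2, 30.3 and 23.4 CPM without lipids (0.40, SE 0.10, edgeR adjusted p = 0.0308). For both, replicates 1 and 2 without lipids lay at similar levels and replicate 3 lower. Plk1, the polo kinase of mitotic entry, was nearly constant with lipids at 16.0, 16.0 and 16.1 CPM, against 14.8, 13.5 and 12.6 CPM without lipids, and did not pass despite groups that did not overlap (0.23, SE 0.09, edgeR adjusted p = 0.13). Of the partners of Aurora B, Birc5, which encodes survivin, was at 46.7, 47.1 and 45.05 CPM with lipids, against 40.4, 35.3 and 31.8 CPM without lipids (0.37, SE 0.09, edgeR adjusted p = 0.0201). Incenp, the scaffold of that complex, was at 123, 123 and 116 CPM with lipids, against 105, 98.9 and 91.0 CPM without lipids. Its change of 0.29 (SE 0.07, edgeR adjusted p = 0.0174) was the smallest that passed and had one of the smaller errors. Cdca8, or borealin, did not pass at 0.22 (edgeR adjusted p = 0.192).

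Among cyclins, CDK1 and its activator edgeR called 0 of 5 genes. As 4.58% of all tested genes were higher, 0 of 5 does not set these genes apart. At an unadjusted p under 0.05, 3 of the 5 were higher (60.0%, against 12.1% of all tested genes). DESeq2 and limma-voom each called 1, Ccna2 (5.02% and 4.7% of all genes higher). The log2 fold changes of the 5 genes lay between 0.12 and 0.45. Ccna2, cyclin A2 of S and G2 phases, was at 81.6, 81.0 and 77.7 CPM with lipids, against 75.3, 54.6 and 46.6 CPM without lipids. Its change of 0.45 was close to that of Top2a (SE 0.14, edgeR adjusted p = 0.0598). Cdk1, the kinase of mitotic entry, was at 82.5, 84.3 and 78.1 CPM with lipids, against 80.8, 66.97 and 56.2 CPM without lipids (0.27, SE 0.11, edgeR adjusted p = 0.146). Its groups overlapped through replicate 1 without lipids. The B cyclins that activate CDK1 had the smallest values of the 5. Ccnb1 was at 28.8, 29.2 and 25.9 CPM with lipids, against 32.7, 22.6 and 22.2 CPM without lipids (0.12, SE 0.14, edgeR adjusted p = 0.636), with its highest level in replicate 1 without lipids. Ccnb2 was at 29.6, 28.3 and 28.3 CPM with lipids, against 27.8, 24.7 and 23.1 CPM without lipids (0.19, SE 0.08, edgeR adjusted p = 0.177). Cdc25c, the phosphatase that activates CDK1, had 67 to 139 counts per library and did not pass at 0.36 (SE 0.17, edgeR adjusted p = 0.213). For the APC/C, the activator Cdc20 was at 14.7, 17.1 and 17.8 CPM with lipids, against 15.5, 13.2 and 12.3 CPM without lipids (0.28, SE 0.11, edgeR adjusted p = 0.145). Its ubiquitin-conjugating enzyme Ube2c changed by 0.23 (edgeR adjusted p = 0.219), and both overlapped between groups.

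Of the 6 kinetochore genes 2 passed (33.3%, against 4.58% of all tested genes higher), and all 6 had positive log2 fold changes. Ndc80, the microtubule-binding subunit of the complex of the same name, on chromosome 17 (71496100 to 71526857), was at 38.7, 37.4 and 34.9 CPM with lipids, against 31.1, 23.0 and 23.2 CPM without lipids, and had the largest fold change of the 44 genes (0.52, SE 0.11, edgeR adjusted p = 0.0132). Its complex partners Nuf2 (0.37, edgeR adjusted p = 0.0742) and Spc25 (0.24, edgeR adjusted p = 0.136) had groups that did not overlap and missed the threshold. Cenpa, the histone H3 variant that marks centromeres, was at 49.2, 53.5 and 60.6 CPM with lipids, against 37.3, 40.4 and 48.0 CPM without lipids (0.38, SE 0.10, edgeR adjusted p = 0.04). Within the libraries without lipids it ran against most of the list, lowest in replicate 1 and highest in replicate 3, and it was lowest of all 6 libraries in replicate 1. The kinetochore motor Cenpe (0.40, edgeR adjusted p = 0.0754) and Cenpf (0.20, edgeR adjusted p = 0.425), a large kinetochore protein, did not pass.

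Spindle motors and spindle proteins had positive values throughout, and 3 of 13 passed, where 4.58% of all tested genes were higher. Kif11, the motor that pushes spindle poles apart, was at 84.6, 86.3 and 80.0 CPM with lipids, against 74.1, 57.1 and 51.5 CPM without lipids (0.46, SE 0.11, edgeR adjusted p = 0.0235). Kif4, a motor on chromosome arms, was at 30.3, 30.4 and 28.2 CPM with lipids, against 26.0, 20.7 and 17.2 CPM without lipids (0.48, SE 0.13, edgeR adjusted p = 0.0327). Nusap1, which bundles spindle microtubules, was at 62.2, 65.2 and 64.4 CPM with lipids, against 58.6, 46.1 and 39.7 CPM without lipids (0.41, SE 0.12, edgeR adjusted p = 0.0427). In all 3, replicate 1 without lipids lay closest to the group with lipids. The other 5 kinesins, Kif15, Kif20a, Kif20b, Kif2c and Kif23, had log2 fold changes of 0.44, 0.40, 0.32, 0.31 and 0.18 and adjusted p-values between 0.0677 and 0.197. Among them Kif23 and Kif20a act at the spindle midzone and Kif2c removes tubulin from microtubule ends. Of the spindle proteins Tpx2, which activates Aurora A, Prc1, which bundles midzone microtubules, and Hmmr had values of 0.30, 0.34 and 0.35, and of the cytokinesis genes Ect2, a RhoA activator, and the contractile ring scaffold Anln had 0.45 and 0.38, with adjusted p-values between 0.0629 and 0.154 for the 5.

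**Figure D3:**
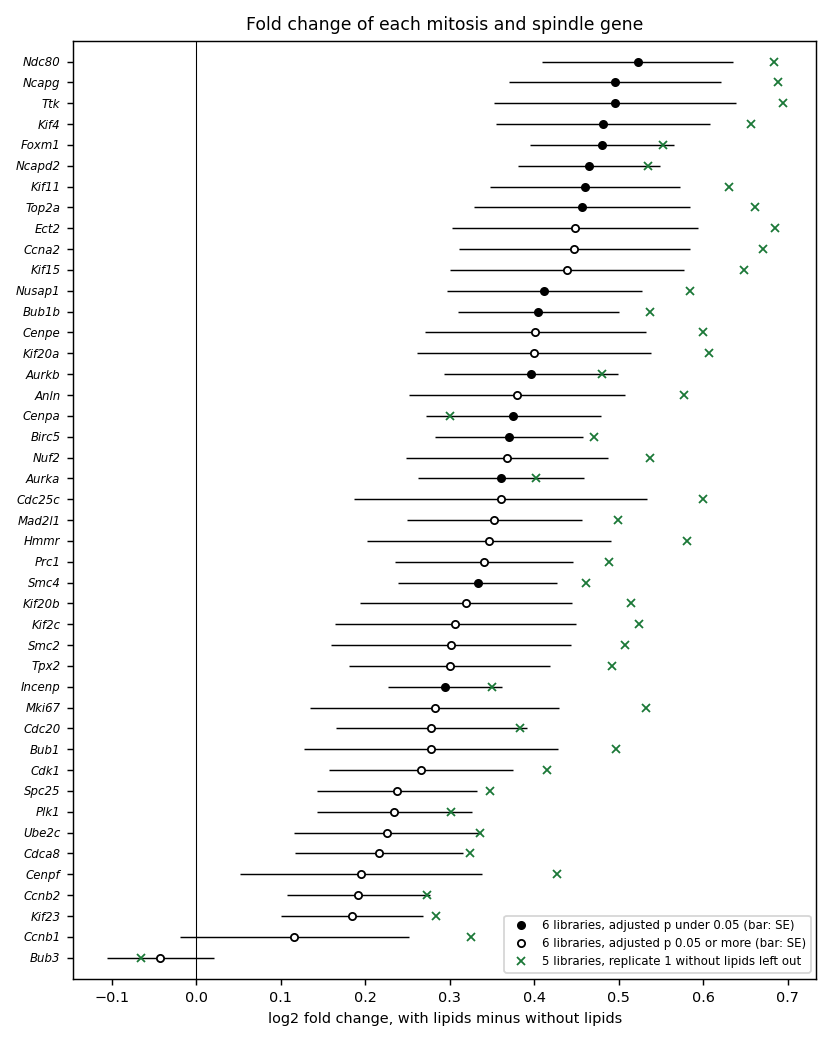
Log2 fold change of each of the 44 genes, with lipids minus without lipids, with its standard error over 6 libraries (circles, filled where the adjusted p was under 0.05) and after dropping replicate 1 without lipids (green crosses). Only Bub3 lay below 0, at -0.04, and the median was 0.51 without that library and 0.36 with it.

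Groups did not overlap, with every library with lipids above every library without, for 24 of the 44 genes, where this held for 14.7% of all tested genes. These were all 16 genes that passed and Mad2l1, Plk1, Ccna2, Ccnb2, Cenpe, Nuf2, Spc25 and Ect2. The genes for which replicate 1 without lipids also lay far below the libraries with lipids were Cenpa, Foxm1, Ncapd2 and Aurka, by 0.55, 0.36, 0.34 and 0.29 log2 below their mean, while it lay above all 3 libraries with lipids for Mki67, Ccnb1, Cenpf and Kif2c.

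Some genes of the list share exons with a neighbour on the opposite strand, and since the sources used here do not state the strand setting of the counting, reads cannot be assigned with certainty. Among genes that passed, Kif4 (3322 counts over 6 libraries) overlaps Pdzd11 (4091), Ncapg (4176) overlaps Lcorl (5494) and Nusap1 (7296) overlaps Oip5 (809). Among those that did not, Cdc20 (1964) shares 53 bases with Elovl1 (20732), Kif20a (3612) overlaps Cdc23 (4855), and Ccna2 (9050) overlaps Exosc9 (4202). The pseudogenes Ccnb1-ps and Ccnb2-ps held 7 and 100 counts beside 3481 and 3492 of their parent genes.

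Related lists of cell division genes were set against the same share of all tested genes, 4.58% higher and 6.87% lower. Of 113 other genes of mitosis, among them APC/C subunits, cohesin, centromere proteins and further motors, 18 (15.9%) were higher and 1 lower with lipids, and the median log2 fold change was 0.27. Hjurp, the chaperone that loads CENP-A at centromeres, was at 130.4, 129 and 128 CPM with lipids, against 109, 94.5 and 92.6 CPM without lipids (0.39, SE 0.07, edgeR adjusted p = 0.00466). Arhgef39 changed by 0.51 (edgeR adjusted p = 0.00832) and Ckap2l, a spindle protein, by 0.51 (edgeR adjusted p = 0.0152). Dropping single libraries ended the call of Arhgef39 in 1 of 6 fits and that of Ckap2l in 3. The gene that was lower was Spdl1, an adaptor that brings dynein to kinetochores, at 48.5, 51.7 and 48.7 CPM with lipids, against 71.1, 59.7 and 61.5 CPM without lipids (-0.37, SE 0.08, edgeR adjusted p = 0.0116). Spdl1 did not pass when replicate 1 or 3 with lipids was dropped (edgeR adjusted p = 0.0689 and 0.0636). Among 52 replication and S-phase genes 4 (7.69%, near the share of all genes) were higher, Prim1 at 0.53, Slbp at 0.37, Cdc7 at 0.61 and Tk1 at 0.39, and 0 lower by edgeR, by DESeq2 and by limma-voom, with 1 lower and 24 higher (46.2%, against 12.1% of all genes) at an unadjusted p under 0.05 and a median of 0.27. Whether these lists differ from the 44 genes was not tested. The counts changed when single libraries were dropped, as for the 44 genes, and the cause was not tested. Without replicate 1 of the group without lipids 71 of 113 other mitosis genes and 38 of 52 S-phase genes were higher. The share of all genes was 12.0% in that fit. Dropping replicate 2 or 3 without lipids gave 6 and 9 other mitosis genes and 0 and 2 S-phase genes. Of all genes 1.87% and 5.01% were higher there. Dropping replicate 1, 2 or 3 with lipids gave 1, 2 and 5 other mitosis genes and 0 S-phase genes each time. All-gene shares were 2.03%, 1.69% and 1.87% in those fits.

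**Figure D4:**
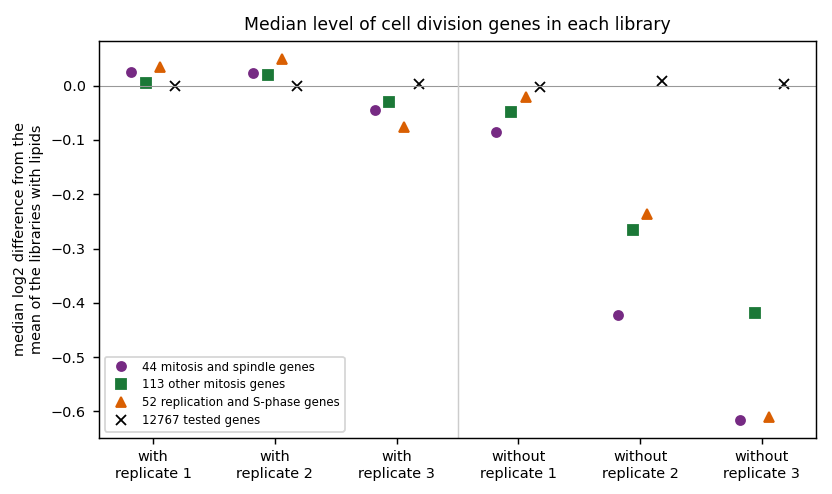
Median log2 difference of each gene list from the mean of the 3 libraries with lipids, by library, for the 44 mitosis and spindle genes, 113 other mitosis genes, 52 replication and S-phase genes and 12767 tested genes. In replicate 3 without lipids the medians were -0.62, -0.42 and -0.61 for the 3 lists and 0.00 for all tested genes, while in replicate 1 without lipids they were -0.09, -0.05 and -0.02.

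Regulators upstream of the mitotic genes were called for 3 of 22 (13.6%, against 4.58% of all genes), all higher with lipids, with 0 lower by edgeR, DESeq2 or limma-voom and 8 higher (36.4%, against 12.1%) and 0 lower at an unadjusted p under 0.05. Rb1, the retinoblastoma protein that restrains E2F, was at 85.6, 91.3 and 89.8 CPM with lipids, against 70.4, 61.6 and 71.1 CPM without lipids (0.39, SE 0.07, edgeR adjusted p = 0.00489). Tfdp2, a dimer partner of E2F, changed by 0.38 (edgeR adjusted p = 0.0108), and E2f8, a repressor of the E2F family, by 0.50 (edgeR adjusted p = 0.0206). The call of Tfdp2 was lost in 3 of the 6 fits that drop a library (edgeR adjusted p = 0.0547 to 0.0829) and that of E2f8 in 4 (edgeR adjusted p = 0.0581 to 0.0933), while Rb1 passed in all 6. E2f7, a relative of E2f8, was at 0.49 (SE 0.15, edgeR adjusted p = 0.0653). Mybl2, which encodes B-MYB, was at 19.9, 20.1 and 17.9 CPM with lipids, against 16.2, 16.8 and 11.9 CPM without lipids, and did not pass (0.37, SE 0.13, edgeR adjusted p = 0.0856). Lin54, the subunit that binds CHR motifs, was at 0.17 (SE 0.13, edgeR adjusted p = 0.47).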

How the data were processed

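Bulk RNA sequencing of 6 libraries of mouse BMDM was analysed, 3 with and 3 without lipids in the cancer cell-conditioned medium, grouped by sample titles. The authors deposited raw counts per Ensembl gene (46603 rows per library, 0 rows without a gene). Per the submitters' processing notes, TopHat2 2.1.0, HTSeq, DESeq2 and GRCm38.p4 were used, with roles not stated. Per the labels' protocols, the library kit was a stranded poly(A) kit. GENCODE M21 (GRCm38) matched 46091 identifiers and left 512 unmatched, holding 0.129% to 0.142% of counts.

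The test of the counts used edgeR 4.0.16 (R 4.3.3): filterByExpr (minimum count 10, minimum total 15), TMM scaling, quasi-likelihood F test, two-sided, Benjamini-Hochberg adjustment over 12767 genes, threshold 0.05. All 44 genes passed the filter, with at least 67 counts in each library. Libraries held 19429022 to 25323053 counts, and a gene at 0 counts could still lie at up to 3 counts, or 0.118 to 0.154 CPM, by counting error. CPM values use TMM-scaled totals. The steps were tested on simulated data. There each gene had the same spread in both groups, so the wider spread without lipids seen here was not covered.

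The labels do not state whether replicates are separate mice or cultures. Each p-value therefore reflects library-to-library spread only, possibly technical. No replicate pair matched within sampling noise, so all 6 were kept. The members and lists were chosen with earlier results of these data known. Values per library are given for each gene past the threshold, for a fixed panel of 14 members and for the smallest p of each role, and for other lists at most the 4 smallest p-values and Mybl2, Lin54, Cdkn1a and Ccnd1 are named. Spread, promoter and overlap examples were chosen after their values were seen. Alternatives were median-of-ratios scaling, library totals alone, no filter, at least 1 CPM in 3 or more libraries, limma-voom (limma 3.58.1) without and with library weights, DESeq2 1.42.0, the replicate number as a block, and leaving out each library (for summed levels, chosen after seeing the data).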

Additional observations from a re-analysis of the deposited data

How the results depend on the processing

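The direction of 43 of the 44 genes was the same in every alternative run, and Bub3 turned to 0.034 with library totals alone. The number called depended on the setting, and the cause was not tested. Higher genes of the 44 numbered 16 in the main test, 16 with median-of-ratios scaling or a filter of 1 CPM, 18 with limma-voom, 25 with DESeq2, 27 with library totals alone, 33 without a filter and 41 with library weights, which gave replicate 1 without lipids a weight of 0.277 against 0.65 to 2.11 for the others. Leaving out a library gave 2 to 43. For other mitosis genes the main counts of 18 higher and 1 lower became 41 higher with library totals alone, 51 and 2 without a filter, 65 and 2 with library weights, and 1 to 71 higher and 0 to 2 lower when a library was left out. For replication and S-phase genes 4 higher and 0 lower became 16 with library totals alone, 28 and 1 without a filter, 10 with DESeq2, 7 with limma-voom, 33 and 1 with library weights, and 0 to 38 and 0 to 1 when a library was left out. Over all genes 585 higher and 877 lower became 1241 and 596 with library totals alone, 1009 and 1243 without a filter, 1450 and 1919 with library weights, and 219 to 1566 and 423 to 1975 when a library was left out. With the replicate number as a block 31 of the 44 genes, 31 other mitosis genes and 22 S-phase genes were higher. Over all 12767 tested genes 715 were higher and 937 lower in that fit. Same-numbered libraries correlated at -0.014, -0.087 and 0.176 in their deviations from the group means. Libraries with different numbers correlated at -0.13 to 0.155. So few values cannot show whether the numbers pair the samples. Ccnd1, at 0.23 log2, turned to -0.040 when replicate 3 without lipids was dropped and to 0.46 when replicate 1 without lipids was dropped (edgeR adjusted p = 0.0952), and passed in no fit that dropped a library. With library totals alone, mean summed levels of the 44 genes were 2912 CPM with lipids and 2188 CPM without lipids. These lay within 1 SD of the TMM-scaled means of 2835 and 2246 CPM. Dropping 1 of 3 libraries cannot move a group mean by 1 SD, so those runs could not test the summed levels.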

Other observations

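Genes that act before mitosis, in G1 phase or as brakes on the cycle, moved both ways, with 4 of 20 (20.0%, against 4.58% of all tested genes) higher and 2 (10.0%, against 6.87%) lower with lipids. Cdkn1a, which encodes the CDK inhibitor p21, was at 221, 219.5 and 213 CPM with lipids, against 161, 161 and 166 CPM without lipids (0.42, SE 0.05, edgeR adjusted p = 0.000591). Unlike most of the 44 mitosis and spindle genes, it was nearly level across the 3 libraries without lipids. Gadd45a, a growth arrest gene, was at 3.66, 4.15 and 4.21 CPM with lipids, against 8.10, 8.22 and 9.78 CPM without lipids (-1.12, SE 0.13, edgeR adjusted p = 0.000292). Ccnd2, cyclin D2, changed by 0.55 (edgeR adjusted p = 0.0297), a call lost on dropping any library with lipids (edgeR adjusted p = 0.0502 to 0.140). Cdkn1c, the CDK inhibitor p57, changed by -0.92 (edgeR adjusted p = 0.0311) at about 1 to 3 CPM, a call that was lost with DESeq2 (adjusted p = 0.0615) and on dropping any library but replicate 1 without lipids (adjusted p = 0.0574 to 0.115). Ccnd1, cyclin D1, was at 179, 162 and 134 CPM with lipids, against 173, 153 and 78.0 CPM without lipids (0.23, SE 0.23, edgeR adjusted p = 0.553), with replicate 3 without lipids far below the other 5 libraries.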
